A study of Homo sapiens with 4 samples.

Results

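FOXM1, MYBL2 and the MuvB core are the transcription factors and adaptor proteins that switch on the late genes of the cell cycle. They were followed here as 10 genes given by symbol and matched to the Ensembl identifiers of the deposited count table, out of 60880 genes listed there. The 10 genes are FOXM1, MYBL2, MYBL1, LIN9, LIN37, LIN52, LIN54, RBBP4, TFDP1 and TFDP2. All 10 were matched, and all 10 had enough reads to be tested.

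The RNA-Seq data compared LNCaP95 cells, an androgen-independent derivative of LNCaP prostate cancer cells, with LN95(KO) cells, in which UGT2B17 was targeted by CRISPR. UGT2B17 encodes an enzyme that conjugates androgens to glucuronic acid. There were 4 libraries, LNCaP95 replicates 1 and 2 and LN95(KO) replicates 3 and 4. Cells of both groups were kept untreated in charcoal-stripped serum, which is low in steroids. How many clones make up LN95(KO) was not given in the sources used here, and the series text calls the parent of the knockout line LNCaP where the sample labels call it LN95. Nothing in the labels says whether the 2 libraries of a group came from separate cultures, so p-values measure only the spread between these samples, which may be technical.

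The MuvB core is an assembly of LIN9, LIN37, LIN52, LIN54 and RBBP4 that stays together through the cell cycle and changes its partners. In resting cells it joins a pocket protein, an E2F factor and a DP protein (TFDP1 or TFDP2) to form the DREAM complex, which holds cell cycle genes off. In dividing cells the core lets go of these partners, binds B-MYB (the product of MYBL2) and then recruits FOXM1, and late genes are turned on. LIN54 is the subunit that contacts DNA, at the cell cycle homology region (CHR), whereas E2F and DP proteins bind their own element in the promoters of early genes.

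The promoter sequences show both elements and are given because the 2 classes of target genes described further on differ in them. Sequences are from RefSeq on GRCh38.p14, read 5′ to 3′ on the strand of the gene, and end at or before the start site. In the windows of late genes the capitals mark a CHR word, TTTGAA. They are CCNB2 at chr15:59105105-59105134 (+), PLK1 at chr16:23678848-23678877 (+), CDCA8 at chr1:37692481-37692510 (+), CENPA at chr2:26786026-26786055 (+), BUB1B at chr15:40161034-40161063 (+) and PRC1 at chr15:90994538-90994567 (-).
CCNB2: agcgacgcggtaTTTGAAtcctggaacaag
PLK1: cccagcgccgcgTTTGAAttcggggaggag
CDCA8: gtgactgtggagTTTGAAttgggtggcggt
CENPA: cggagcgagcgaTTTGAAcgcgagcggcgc
BUB1B: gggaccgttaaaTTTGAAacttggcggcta
PRC1: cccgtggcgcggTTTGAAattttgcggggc
In these 6 windows the first base of the word lies 29 (CCNB2 and PLK1), 23 (CDCA8 and BUB1B), 18 (CENPA) and 20 (PRC1) bases before the start site. The windows are chosen examples. Within 40 bases before the start site a CHR word was found in 11 of 30 late genes with an entry.

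Among early genes the capitals mark an E2F word on either strand. CDC25A is at chr3:48188444-48188473 (-), PCNA at chr20:5126664-5126693 (-) and CDT1 at chr16:88803742-88803771 (+).
CDC25A: tggtggattccgTTTGGCGCcaactaggaa
PCNA: gcagcgtcagggGCGGGAAAaggcgtgcgt
CDT1: gccagggcgcccGCGGGAAAtttggcggga

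The promoters of 3 of the 10 factors hold one of these words themselves in the first promoter listed. LIN54 is at chr4:83010906-83010935 (-) with a CHR word, and LIN52 at chr14:74084919-74084948 (+) and TFDP1 at chr13:113584621-113584650 (+) have an E2F word.
LIN54: ggcccttgtgcgTTTGAAggttggcggggc
LIN52: atggaacctcgtTTTCCCGCcgacggttgg
TFDP1: agggcgccgaagGCGCGAAAaggcgcgcag
The promoters of MYBL2 and LIN9 are printed over 250 bases because these genes rose between the groups (below), and neither holds a CHR or an E2F word in this stretch. Only the exact words listed further on were searched, and variants of them were not, so the lack of a word is not the lack of a site. MYBL2 is at chr20:43666864-43667113 (+) and LIN9 at chr1:226309504-226309753 (-).
MYBL2: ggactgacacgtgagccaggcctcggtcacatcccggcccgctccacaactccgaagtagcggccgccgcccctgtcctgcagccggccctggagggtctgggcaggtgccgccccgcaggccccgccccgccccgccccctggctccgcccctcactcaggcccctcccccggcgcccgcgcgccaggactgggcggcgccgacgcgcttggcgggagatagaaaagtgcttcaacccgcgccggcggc
LIN9: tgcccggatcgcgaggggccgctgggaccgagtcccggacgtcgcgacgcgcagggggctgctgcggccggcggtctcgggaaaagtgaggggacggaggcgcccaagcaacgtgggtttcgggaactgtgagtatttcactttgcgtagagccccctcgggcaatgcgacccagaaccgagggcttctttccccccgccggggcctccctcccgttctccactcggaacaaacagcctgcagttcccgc
LIN9 has 3 promoters listed, and 1 of the other two holds TTCGAA and TTTGAA with their first bases 60 and 3 bases before its start site. FOXM1 and MYBL1 had no entry.

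The libraries held 17330338 to 18813193 gene reads. Genes were compared with the quasi-likelihood test of edgeR, and a gene was called when its Benjamini-Hochberg adjusted p over all tested genes was under 0.05 and its fold change was over 2. The word rose or fell is used for called genes. Over all 15626 tested genes 18% were called. The share that rose in LN95(KO) was 8.86%, and the share that fell was 9.13%. An adjusted p under 0.05 at any fold was reached by 59.8%, and 79.8% had groups whose CPM (the share of a library's reads that fall on a gene, on a common scale set by TMM) did not overlap. Unaligned reads were 3.85% and 3.96% of the entries of the LNCaP95 libraries but 8.05% and 7.71% of those of LN95(KO), a difference that cannot be told apart from the groups.

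UGT2B17, the targeted gene, had 2788 and 2748 reads in LNCaP95, whereas the libraries labelled as knockout had 21 and 20. Of 8 luminal prostate markers all were present in every library, with KLK3 (log2 fold change 3.62) and TMPRSS2 (2.96) among those higher and FOLH1 (-1.30) lower in LN95(KO). Among 11 markers of other cell types PTPRC, CD68, CHGA, KRT5 and TP63 had 0 to 3 reads per library. Of the 5 that could be tested, KRT14 (1, 2, 17 and 20 reads), VIM (292, 303, 2393 and 2319 reads) and PDGFRB rose, and the summed CPM of these markers went from 48.3 and 48.5 in LNCaP95 to 176 and 165 in LN95(KO). Exons of other genes cover 85.6% of the exon bases of CD68, so its 0 reads do not show that it is absent. The part of other cells in the results was not tested.

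Of the 10 factors 3 rose in LN95(KO), namely MYBL2, FOXM1 and LIN9, against 8.86% of all genes. The other 7 were not called. An adjusted p under 0.05 was reached by 6 of the 10, all 6 higher, against 59.8% of all genes, and the groups did not overlap for 9 of the 10 against 79.8%. The median log2 fold change of the 10 was 0.57 beside -0.01 over all tested genes. In bulk RNA a larger share of cells that transcribe a gene and more RNA of that gene per cell cannot be told apart, which holds for every cell cycle gene described here.

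**Figure D1:**
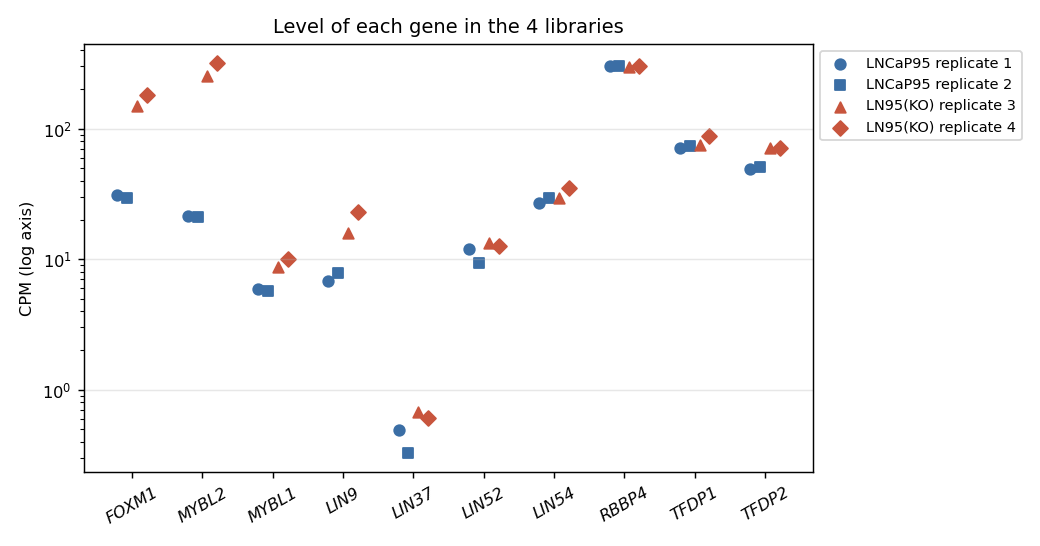
Level of each of the 10 genes in the 4 libraries, in CPM on a log axis, with blue symbols for LNCaP95 and red symbols for LN95(KO). MYBL2 and FOXM1 stand farthest apart between the groups, and the 4 points of RBBP4 lie between 296.9 and 302.4 CPM.

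FOXM1 is the forkhead factor that drives genes of G2 phase and mitosis and is itself made as cells cycle. It lies at chr12:2966846-2986340 on the minus strand (GRCh37). It had 575 and 543 reads in LNCaP95 and 2649 and 3288 in LN95(KO). Both knockout libraries were several times above both LNCaP95 libraries, and LN95(KO) replicate 4 was above replicate 3. In CPM the level went from 30.4 ± 1.07 to 164.9 ± 21.6 (SD, n = 2 each). The fold was 5.42, or 2.44 on the log2 scale (SE 0.08, adjusted p = 1.05e-11, edgeR), and FOXM1 stood at rank 398 of all tested genes ordered from the largest rise. Exons of ITFG2 on the other strand cover 15.9% of its exon bases, and reads there could not be assigned without strand. ITFG2 had 227, 245, 242 and 267 reads.

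MYBL2 encodes B-MYB, the partner through which MuvB is turned from repression to activation. It lies at chr20:42295659-42345135 on the plus strand (GRCh37), with no exon base under another gene. Its reads numbered 396 and 387 in LNCaP95 against 4502 and 5764 in LN95(KO). This was the largest difference among the 10 genes. The level was 21.3 ± 0.23 CPM in LNCaP95 and 285 ± 43.5 CPM in LN95(KO) (SD, n = 2 each), a 13.4-fold rise. On the log2 scale this was 3.74 (SE 0.11, adjusted p = 6.3e-09, edgeR), at rank 127 among all rises.

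MYBL1 encodes A-MYB, a relative best known from male germ cells. It had 109 and 105 reads in LNCaP95 and 155 and 182 in LN95(KO). Its groups did not overlap, and its difference of 0.69 on the log2 scale (SE 0.14, adjusted p = 4.63e-04, edgeR) stayed under 2-fold. MYB, the third gene of the family and a factor of blood progenitors, had 8, 10, 10 and 13 reads and was not called (0.38, adjusted p = 0.48). Per length (RPKM, which is CPM divided by the kilobases of exon), MYBL2 held 89.6% and 89.5% of the family in the LNCaP95 libraries and 98.6% and 98.7% in those of LN95(KO). The ratio of MYBL2 to MYBL1 in RPKM was 9.47 and 9.61 in LNCaP95 against 75.7 and 82.6 in LN95(KO), so that MYBL2 led the family in every library and by more in LN95(KO).

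In the MuvB core LIN9, the subunit that with LIN52 contacts B-MYB, was the member that rose. It lies at chr1:226418850-226497570 on the minus strand (GRCh37). LIN9 had 126 and 144 reads in LNCaP95 and 281 and 419 in LN95(KO). The groups did not overlap, but the 2 knockout libraries were farther apart than for the other core genes, with replicate 4 at 1.45 times the CPM of replicate 3. The level went from 7.35 ± 0.732 to 19.4 ± 5.01 CPM (SD, n = 2 each), or by 1.40 on the log2 scale (SE 0.17, adjusted p = 9.73e-06, edgeR). With 1 library left out in turn it ranged from 1.12 to 1.65 and stayed called.

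The other core genes were not called. LIN52, the small subunit whose phosphorylation by DYRK1A favours DREAM, had 220 and 172 reads in LNCaP95 and 237 and 232 in LN95(KO) (log2 fold change 0.29, SE 0.13, adjusted p = 0.0541, edgeR). LIN54, which binds the CHR, had 494 and 535 reads against 523 and 642 (0.21, SE 0.09, adjusted p = 0.0520, edgeR). For both genes the groups did not overlap in CPM, yet the gap between the groups was smaller than the gap between the 2 replicates of 1 group.

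LIN37, a subunit needed for repression by DREAM, had 9, 6, 12 and 11 reads and the widest error of the 10 genes (0.64, SE 0.47, adjusted p = 0.251, edgeR). Its low count has limits of its own. Exons of other genes cover 54.0% of its exon bases, and 25.9% of its 100-base windows occur in an overlapping gene on the same strand, ENSG00000188223. That gene and the one on the other strand, ENSG00000267439, had 0 reads in all libraries, and reads falling on more than 1 gene are left out by the counting tool. The level of LIN37 is therefore uncertain.

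RBBP4, a histone-binding protein that the core shares with several chromatin complexes, had 5576 and 5501 reads in LNCaP95 and 5255 and 5518 in LN95(KO). The groups overlapped, at 301 ± 1.25 and 299.6 ± 3.87 CPM (SD, n = 2 each). The difference on the log2 scale was -0.01 (SE 0.05, adjusted p = 0.897, edgeR), and its sign turned with library totals as the scaling or with LN95(KO) replicate 3 left out. Exons of SYNC (0, 1, 4 and 3 reads) on the other strand cover 22.8% of its exon bases. Its processed copy RBBP4P1 had 187, 188, 134 and 180 reads, and 1.64% of the 100-base windows of RBBP4 occur in such copies.

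The DP proteins are the obligate partners of E2F1 to E2F6. TFDP1 had 1318 and 1341 reads in LNCaP95 and 1328 and 1591 in LN95(KO). The first knockout library lay close to LNCaP95, at 75.03 CPM against 71.4 and 73.2, and the second at 87.2 CPM. The log2 fold change was 0.17 (SE 0.07, adjusted p = 0.043, edgeR), under 2-fold. TFDP2 had 912 and 935 reads against 1258 and 1290, with knockout replicates close together at 71.1 and 70.7 CPM above 49.4 and 51.1 CPM. Its difference of 0.50 on the log2 scale (SE 0.06, adjusted p = 1.83e-06, edgeR) was also under 2-fold. TFDP3 had 0 reads in every library. TFDP1 held 82.1% and 82.0% of the summed RPKM of TFDP1 and TFDP2 in LNCaP95 and 77.0% and 79.7% in LN95(KO).

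**Figure D2:**
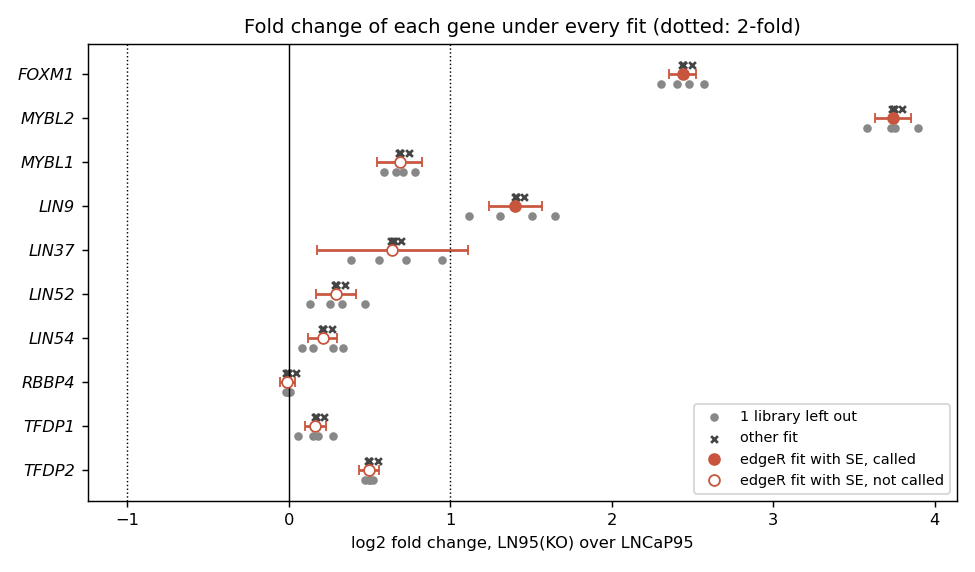
Log2 fold change of LN95(KO) over LNCaP95 for each of the 10 genes, with the edgeR value and its SE in red (filled where called), fits with 1 library left out in grey, and the other fits as crosses. FOXM1, MYBL2 and LIN9 stayed beyond the dotted 2-fold line in every fit, and RBBP4 lay around 0.

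Levels between genes were compared per length. In LNCaP95 the order by RPKM was RBBP4 (31.8), TFDP1 (19.3), MYBL2 (7.67), FOXM1 (6.18), TFDP2 (4.22), LIN54 (4.14), LIN52 (2.81), LIN9 (1.65), MYBL1 (0.80) and LIN37 (0.14). Of these neighbours TFDP2 and LIN54 overlapped in their replicates. In LN95(KO) MYBL2 was first at 102.7 RPKM, followed by FOXM1 (33.5) and RBBP4 (31.6), which overlapped, and by TFDP1 (21.7). TFDP2 (5.96), LIN54 (4.79), LIN9 (4.37), LIN52 (3.44), MYBL1 (1.29) and LIN37 (0.23) came after, and LIN54 and LIN9 overlapped. The order of FOXM1 and MYBL2 in LNCaP95 depends on the length used, since with the longest transcript in place of all exon bases FOXM1 was at 8.56 and MYBL2 at 7.88 RPKM. So does the order of LIN54 and LIN9 in LN95(KO), which were then at 5.29 and 5.44 RPKM. The lengths include the exon bases under other genes described above for FOXM1, LIN37 and RBBP4, where reads may not have been assigned.

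The ratio of MYBL2 to FOXM1 in RPKM was 1.22 and 1.26 in LNCaP95 against 3.01 and 3.11 in LN95(KO). Within the core the ratio of LIN9 to LIN54 was 0.388 and 0.410 in LNCaP95 against 0.818 and 0.994 in LN95(KO). LIN9 held 3.78% and 4.38% of the summed RPKM of the core in the LNCaP95 libraries and 8.30% and 11.3% in those of LN95(KO), while RBBP4 held 78.4% and 78.5% and then 72.8% and 69.6%. In all of these ratios both knockout libraries lay on the same side of both LNCaP95 libraries.

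**Figure D3:**
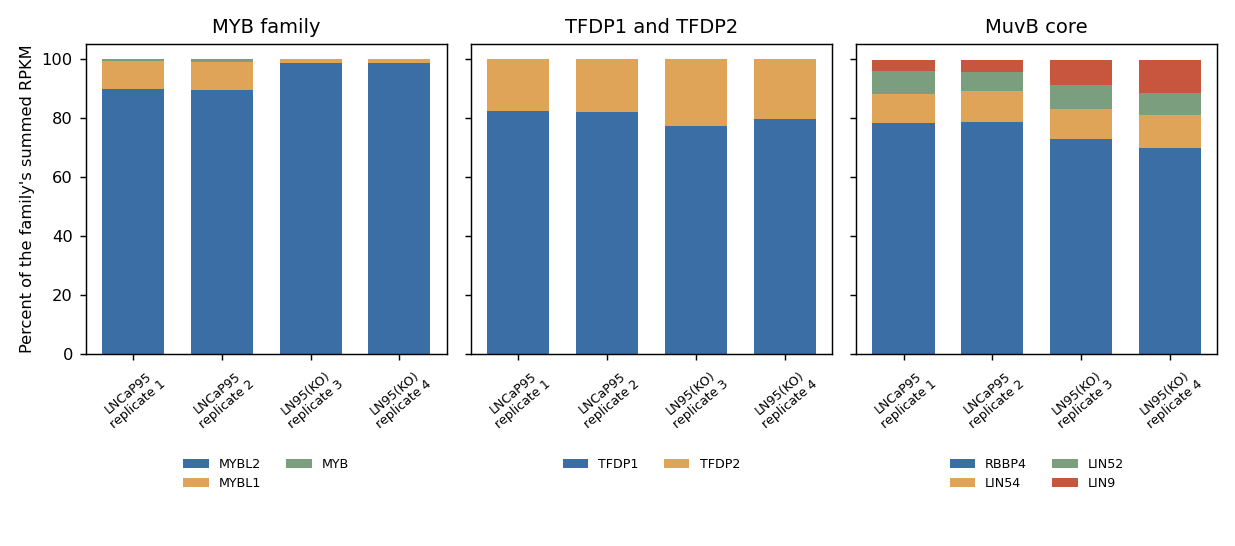
Share of each gene in the summed RPKM of its family (percent) in the 4 libraries, for the MYB family, for TFDP1 and TFDP2, and for the MuvB core, where LIN37 is under 1% and is not drawn. The share of MYBL2 was 89.5% to 89.6% in LNCaP95 and 98.6% to 98.7% in LN95(KO), and that of LIN9 grew from 3.78% and 4.38% to 8.30% and 11.3%.

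The partners that bind DP proteins or join MuvB in DREAM were taken as a list of 11 E2F and pocket protein genes. E2F1, E2F2, E2F7 and E2F8 rose, beside 8.86% of all tested genes, and the other 7 were not called, with a list median of 0.33. E2F1, an activator, had 331, 354, 1819 and 2341 reads (log2 fold change 2.63, SE 0.11). E2F2, a second activator, had 26, 30, 253 and 409 reads (3.59, SE 0.26). The repressors E2F7 (27, 30, 307 and 353 reads) and E2F8 (33, 32, 277 and 335 reads), which work without a DP partner, had log2 fold changes of 3.56 and 3.26. In these 4 genes both knockout libraries lay above both LNCaP95 libraries.

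E2F4, the factor of DREAM in resting cells, had 1284, 1232, 1205 and 1320 reads with overlapping groups (0.04, SE 0.06, adjusted p = 0.611, edgeR). The pocket proteins of DREAM are RBL2, at 1608, 1556, 1461 and 1485 reads (-0.07, adjusted p = 0.285), and RBL1, at 237, 239, 434 and 464 reads (0.95, adjusted p = 1.2e-07, under 2-fold). RB1 had a log2 fold change of 0.13, E2F3 of 0.33, E2F5 of -0.29 and E2F6 of -0.04. In RPKM E2F4 (19.03) was above E2F1 (6.93) in LNCaP95, and E2F1 (42.9) was above E2F4 (19.5) in LN95(KO).

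Enzymes and cyclins that modify these factors or control their turnover were taken as a list of 17 genes, of which 8 rose and 1 fell, beside 8.86% and 9.13% of all tested genes. CCNA2 (88, 75, 836 and 1016 reads) had a log2 fold change of 3.54, PLK1 of 3.24, MELK of 2.94, CDK1 of 2.89 and CCNB1 of 2.23. These 5 encode cyclins and kinases of S phase to mitosis. CKS1B, an adaptor of CDK and of SKP2, had a value of 1.80, CCNF, cyclin F of a ubiquitin ligase, of 1.73, and CDK2 of 1.59. CDK1, CCNA2, CCNB1 and PLK1 are also in the list of late targets.

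CCND2, a D-type cyclin, was the 1 gene of this list that fell, with 1042 and 1014 reads in LNCaP95 and 445 and 480 in LN95(KO) (-1.12, SE 0.07, adjusted p = 3.27e-10, edgeR). CCND1 (0.28) and CCND3 (-0.03) and the kinases CDK4 (0.18) and CDK6 (0.19) were not called. DYRK1A, the kinase that favours DREAM, had 968, 987, 734 and 729 reads. Its difference of -0.39 on the log2 scale (SE 0.07, adjusted p = 7.37e-05, edgeR) was under 2-fold. SKP2 (0.70) and FZR1 (0.32), which directs FOXM1 to degradation as cells leave mitosis, were not called either.

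The targets of the complex were taken as 2 lists, 35 late genes bound by B-MYB with MuvB and by FOXM1, and 28 early genes bound by E2F with a DP partner. Both lists were chosen with earlier results of these data known, so the shares called in them are no independent evidence. All 35 late genes rose, against 8.86% of all tested genes, with a median log2 fold change of 2.94. AURKB, a kinase of chromosome segregation, had 56, 73, 933 and 1155 reads (4.05, SE 0.13). After AURKB came CCNA2 and MKI67, the proliferation marker, with 171, 166, 1696 and 2087 reads (3.52, SE 0.10). The smallest value was that of PRC1, a protein of the central spindle, with 8, 6, 21 and 27 reads (1.79, SE 0.40). Exons of other genes cover 61.9% of the exon bases of PRC1, so its level is uncertain. The authors reported reduced proliferation of LN95(KO) cells and a delay at G2 and mitosis. How the rise of the late genes goes with this was not tested here.

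Of the 28 early genes 23 rose, against 8.86% of all tested genes, and 5 were not called. Their median was 1.64 beside -0.01 over all tested genes. RRM2, a subunit of ribonucleotide reductase, had 104, 96, 1116 and 1470 reads (3.72, SE 0.13). CDC45 and MCM10, which act at the start of replication forks, had values of 3.53 and 3.43. The 5 genes not called were MCM6 (0.70), CCNE2 (0.50), CCNE1 (-0.13), SLBP (-0.13) and POLA1 (-0.15, overlapping groups). The cyclin E genes, early E2F targets, thus differed from RRM2 in the size of their value within the same list. The summed CPM was 353 and 329 in LNCaP95 against 2249 and 2672 in LN95(KO) for late genes, and 597 and 584 against 1450 and 1797 for early genes.

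**Figure D4:**
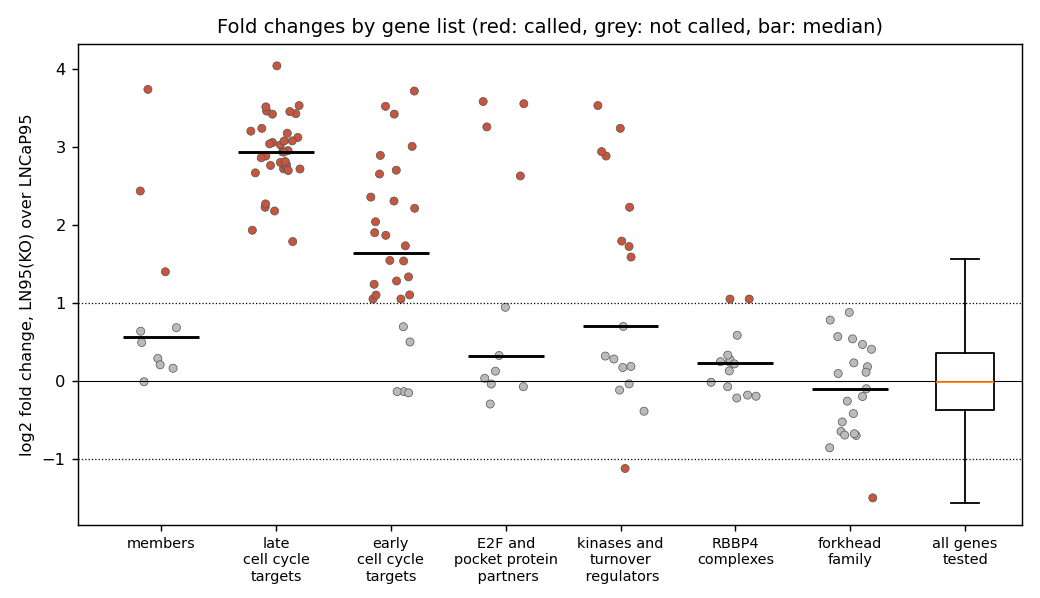
Log2 fold change of LN95(KO) over LNCaP95 for the tested genes of each list (points, red where called, bar at the median), beside all 15626 tested genes as a box from the lower to the upper quartile with a line at the median and whiskers to the outermost 5% on each side. The late targets lie from 1.79 to 4.05, and the median of all genes is -0.01.

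The 2 knockout libraries were not alike in these genes. CPM was higher in LN95(KO) replicate 4 than in replicate 3 for 34 of the 35 late genes, 27 of the 28 early genes and 7 of the 10 factors, and for 50.8% of all tested genes. The median ratio of replicate 4 to replicate 3 was 1.19 for late and 1.26 for early genes beside 1.00 over all genes. Between the LNCaP95 libraries the median ratio of replicate 2 to replicate 1 was 0.918 for late and 0.968 for early genes. For the late and early lists these median gaps are small beside the median difference between the groups. This does not hold for every gene. For TFDP1 and LIN54 the ratio of replicate 4 to replicate 3 was 1.16 and 1.19, above the fold between the groups of 1.12 and 1.16. What lies behind the gaps between replicates was not tested.

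The 2 lists of targets also differ in the promoter words shown above, which no count was used for. In the first promoter listed, from 250 bases before to 50 bases after the start site, a CHR word (TTTGAA or TTCGAA, either strand) was present in 21 of 30 late genes with an entry (70.0%), in 2 of 24 early genes (8.33%) and in 16.6% of all 27305 genes. An E2F word (TTTGGCGC, TTTCCCGC, TTTCGCGC or TTTGCCGC, either strand) was present in 2 of the 30 late genes (6.67%), in 14 of the 24 early genes (58.3%) and in 3.33% of all genes. Within 40 bases before the start site a CHR word was found in 11 of the 30 late genes (36.7%) and in 1.94% of all genes. The lists hold known targets of these factors, so the words are no independent evidence, and a match is not a binding site. Nor is a missing word a missing site, since only these exact words were searched.

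The word TGTTTA, a core of forkhead sites, was in 10.0% of late genes beside 12.4% of all genes. AACGG or AACTG, short words of MYB sites that are common in any sequence, were in 66.7% of late genes beside 52.6%. In the first promoter listed, 1 of the 8 factors with an entry held a CHR word, beside 16.6% of all genes. An E2F word was held by 2 of the 8, beside 3.33% of all genes. These are the 3 shown above (LIN54, LIN52 and TFDP1), none of them called. Over all promoters listed, LIN9, LIN37 and TFDP2 held a CHR word as well, so that 4 of the 8 factors held one, and LIN9 among these rose. The share of all genes was not computed over all promoters. A gene with more promoters has more places for a word, so this count says nothing about enrichment.

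FOXM1 was also compared with a list of 43 other forkhead genes, which is not the whole family, and 21 of these had enough reads to be tested. FOXF2, a factor of mesenchyme, fell (34, 30, 15 and 7 reads, log2 fold change -1.497, SE 0.36, adjusted p = 0.00182, edgeR) and the other 20 were not called, beside 9.13% of all genes that fell. The list median was -0.10. FOXA1, the pioneer factor of luminal prostate cells, had 12978, 12740, 6956 and 6953 reads (-0.85, SE 0.05, adjusted p = 4.1e-11, edgeR), under 2-fold. Of the summed RPKM of this list with FOXM1 included, FOXM1 held 2.54% and 2.40% in the LNCaP95 libraries and 14.7% and 17.6% in those of LN95(KO). Its place among these genes moved from 8 (7 with longest-transcript lengths) to 2. FOXA1 stayed first, at 63.8% and 62.7% and then 43.1% and 41.4%.

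RBBP4 sits in other complexes, and 14 genes of these with its paralog RBBP7 were taken as a list. CHAF1A and CHAF1B, its partners in the chromatin assembly factor of replication forks, rose just past 2-fold (both 1.05, SE 0.10 and 0.11), and the other 12 were not called. Over all tested genes 8.86% rose, so 2 of 14 is no result about the list. The list had 0 calls without LN95(KO) replicate 4 and 1 call without either LNCaP95 library. Its median was 0.23, and CHAF1A and CHAF1B are early targets as well. RBBP7 had 1787, 1562, 2287 and 2640 reads (0.59, adjusted p = 7.24e-07, edgeR, under 2-fold), so that the ratio of RBBP4 to RBBP7 in RPKM was 2.42 and 2.73 in LNCaP95 against 1.78 and 1.62 in LN95(KO). SUZ12 and EZH2 of the Polycomb complex had values of -0.22 and -0.01. TESMIN, the paralog of LIN54, had 479, 429, 514 and 539 reads (0.25, adjusted p = 0.0162, edgeR, under 2-fold).

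The genes most like FOXM1 and MYBL2 were found from the 4 libraries by the root mean square difference of log2 CPM centred on each gene, among 11858 protein-coding genes. With 4 libraries in 2 groups this measure follows mostly the size of the group difference. Nearest to FOXM1 was ASF1B, a histone chaperone, with 136, 128, 614 and 782 reads and a difference of 0.0169. CIP2A, RMI2, SHC4 and VWF followed, the last pair with 8 reads in each LNCaP95 library. Nearest to MYBL2 was RRM2 at 0.038, and then ESPL1, the separase of anaphase, with 79, 78, 862 and 1115 reads. TICRR, SPC25 and DEPDC1B came next, at up to 0.0925.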

How the data were processed

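RNA was selected with oligo(dT) and sequenced on the DNBseq platform in 4 libraries, 2 per group. The authors deposited raw read counts, made with hisat2 (version 2.1.0) on hg19 and htseq on GENCODE release 29, without strand per the file names. The table of the whole series and the single files differed in 0 cells. Its 5 summary lines (reads on no feature 3.81% to 4.06%, ambiguous 9.82% to 10.4%) were left out. Symbols matched 59899 identifiers and not 981. Coordinates and exons are from GENCODE release 44 on GRCh37, promoters from RefSeq on GRCh38.p14.

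Counts were tested with edgeR 4.0.16 in R 4.3.3 (quasi-likelihood, robust, TMM, filterByExpr with minimum count 10). DESeq2 1.42.0, RLE factors, library totals, no filter, no fold criterion, 1 library left out in turn and longest-transcript lengths were the alternatives. CPM uses TMM-scaled library sizes, and RPKM divides by all exon bases of a gene. A count of 0 allows 3 counts, or 0.159 to 0.173 CPM, which covers counting error only. With 2 against 2 libraries the smallest two-sided exact permutation p is 0.333, so none was used. The biological coefficient of variation was 4.27%. Replicates differed by more than counting noise (chi-square per degree of freedom 2.44 and 3.58). The tests were tested on simulated data.

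The members and lists were chosen with earlier results of these data known. Named were the 10 factors, UGT2B17, the tested partners, regulators and paralogs, in other lists the 3 largest called, the smallest and any of the rarer direction, and the 5 genes nearest to FOXM1 and to MYBL2. ITFG2, SYNC and pseudogenes were added for overlap, and E2F and CHR examples, FOXA1, EZH2, and markers with few reads after their values were seen. Some genes that this rule covers are not reported here. A comparison of the proteins of the factors was not run.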

Additional observations from a re-analysis of the deposited data

How the results depend on the processing

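FOXM1, MYBL2 and LIN9 were called under all 8 alternative fits and the other 7 factors under none. The log2 fold change of RBBP4 turned sign, to 0.0479 with library totals, and ranged from -0.017 to 0.0099 with 1 library left out (0.0099 without LN95(KO) replicate 3). Library totals moved the median of all genes by 0.06. With no fold criterion 9349 of the 15626 tested genes were called, or 59.8%. Beside that share the calls were 6 of the 10 factors, 7 of 11 E2F and pocket proteins and 14 of 17 kinases and turnover regulators. They were 12 of 21 tested genes in the forkhead family, 10 of 14 in RBBP4 complexes and 2 of 3 tested paralogs. With 1 library left out the calls ranged from 1 to 2 in the forkhead family (2 without LN95(KO) replicate 4) and from 0 to 2 in RBBP4 complexes (0 without LN95(KO) replicate 4, 1 without either LNCaP95 library). Adjusted p-values over the alternatives ranged from 0.00175 to 0.426 for TFDP1, from 0.00762 to 0.461 for LIN54 and from 0.0122 to 0.51 for LIN52, so their side of 0.05 depends on the fit. Longest-transcript lengths moved 21 of the RPKM levels and shares by more than the replicate SD and 3 by less. Low counts limit LIN37, MYB and PRC1. No paired analysis was possible because LNCaP95 holds replicates 1 and 2 and LN95(KO) replicates 3 and 4.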
